A study of Mus musculus with 8 samples.

Results

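The genes described here move chloride across the neuronal membrane or phosphorylate the proteins that do so, and they were measured in ribosome-associated mRNA of PV+ interneurons. They comprised 3 cation-chloride cotransporters, Slc12a2, Slc12a5 and Slc12a7, the WNK kinases Wnk1, Wnk2 and Wnk3, and the kinases Stk39 and Oxsr1, which act below the WNKs. These 8 genes were chosen by symbol among the 45706 genes of the deposited tables, and all 8 passed the filter on low counts. All 8 samples came from PvalbFlp/+;Neurod6Cre/+ mice aged 42 to 70 postnatal days by the labels (the methods give a slightly later lower limit), whose primary somatosensory cortex (S1) received an AAV soon after birth (postnatal day 1 by the labels, day 1 to 3 by the methods) with a floxed, Flp-dependent (flox-fdio) cassette that encodes HA-RPL10a joined to myc-hM3Dq. Flp recombinase under the control of Pvalb turns this cassette on in PV+ interneurons, and Cre under the control of Neurod6, a gene of pyramidal cells, removes it. The cassette encodes a tagged ribosomal protein, with which ribosomes and their mRNA are pulled down, and hM3Dq, a receptor that raises neuronal activity when clozapine-N-oxide (CNO) is given. The control mice therefore also carried the virus, the receptor and both recombinases. Mice received 5 injections of CNO at 1 mg/kg or of vehicle over 48 h. The viral dose reached only a sparse subset of PV+ interneurons, and each sample pooled tissue from 4 brains. There were 4 CNO-treated and 4 vehicle-treated samples, with 44064161 to 49413273 reads counted on genes per sample, so that 3 reads corresponded to 0.0607 to 0.0681 CPM (counts scaled to library size).

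Inhibition by GABA depends on the chloride gradient, because GABAA receptors are chloride channels. NKCC1, the product of Slc12a2, carries chloride into the cell with sodium and potassium, whereas KCC2, the product of Slc12a5, carries chloride out with potassium and is confined to neurons. WNK kinases sense low intracellular chloride and phosphorylate SPAK (Stk39) and OSR1 (Oxsr1), which in turn phosphorylate the cotransporters, activating NKCC1 and inhibiting the KCCs. Much of this control acts on the proteins, and phosphorylation was not measured here. The values below are the abundance of mRNA on ribosomes, given in TPM, a unit scaled to a common total that corrects for transcript length and allows levels of different genes to be compared. Fold changes were instead fitted to counts, which are not corrected for length, so that they can differ from the ratio of mean TPM.

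The labelled cell type was checked against its markers. All 11 listed PV+ interneuron markers were detected, with Gad1, a GABA-synthesizing enzyme, the most abundant. Their summed level was 3686, 2649, 3199 and 4114 TPM in CNO replicates 1 to 4 and 1239, 3002, 3277 and 3107 TPM in vehicle replicates 1 to 4. Vehicle replicate 1 thus stood apart, below every other sample. The 10 pyramidal cell markers, of which Slc17a7 was the most abundant, summed to between 660 and 900 TPM in CNO samples and between 838 and 1033 TPM in vehicle samples, with the highest value in vehicle replicate 1. The 6 oligodendrocyte markers summed to between 563 and 1020 TPM, the 7 astrocyte markers, led by Aldoc, to between 469 and 606 TPM, and the 6 markers of other interneurons, led by Lamp5, to between 596 and 801 TPM. Lower sums were found for blood vessel markers, led by Cldn5 (36.5 to 88.0 TPM), for the 3 markers of oligodendrocyte precursors, led by Olig1 (36.3 to 61.3 TPM), and for the 5 microglial markers, led by P2ry12 (37.3 to 69.99 TPM). Choroid plexus, a tissue rich in NKCC1 and SPAK, was nearly absent, its 4 markers, led by Kcnj13, summing to between 1.83 and 4.01 TPM. No listed marker was at 0 in all samples. Non-neuronal and pyramidal cell mRNA was therefore present beside that of PV+ interneurons, and its part in the levels below was not tested. In pooled tissue of this kind, fewer cells of a type and less RNA per cell cannot be told apart.

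As a check of the treatment labels, Fos, an immediate early gene induced by neuronal activity, was higher in every CNO-treated sample. Its level was 36.9, 72.7, 51.3 and 83.7 TPM in CNO replicates 1 to 4 against 18.1, 20.6, 13.8 and 15.7 TPM in vehicle replicates 1 to 4, and the groups did not overlap. The log2 fold change was 1.93 (SE 0.22), with an adjusted p = 0.0569 by edgeR's quasi-likelihood test with Benjamini-Hochberg adjustment over 17862 genes, and p = 0.0286 by two-sided exact permutation, the smallest that 4 against 4 samples allow. The call depended on the test, as the adjusted p was 6.78e-13 with DESeq2 and 6.13e-20 with edgeR's likelihood ratio test on robust dispersions. It also depended on the samples, as the quasi-likelihood test gave an adjusted p from 0.0140 to 0.556 with each sample left out.

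The cotransporters spanned a wide range of abundance, with KCC2 far above NKCC1 and KCC4 at about 1 TPM. Slc12a5 (ENSMUSG00000017740, chr2:164960802-164999731, plus strand, GRCm38) is transcribed from alternative first exons that give rise to the isoforms KCC2a and KCC2b. The deposited gene counts add the transcripts of both starts and cannot separate them. To show what differs between them, the bases just before each start are given, with matches to 4 motifs of activity-responsive or E-box-binding factors in capitals. The upstream window, chr2:164960596-164960801 on the plus strand of GRCm38.p6, holds a match to TGANTCA, the motif of AP-1, a factor of which FOS is a subunit. The downstream window, chr2:164967738-164967982 on the same strand, holds a match to CACGTG, an E-box bound by USF factors.
Slc12a5 start 1: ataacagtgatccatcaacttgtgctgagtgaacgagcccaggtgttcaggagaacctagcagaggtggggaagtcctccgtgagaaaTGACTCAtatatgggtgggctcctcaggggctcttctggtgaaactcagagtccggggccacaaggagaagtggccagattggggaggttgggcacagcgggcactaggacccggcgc
Slc12a5 start 2: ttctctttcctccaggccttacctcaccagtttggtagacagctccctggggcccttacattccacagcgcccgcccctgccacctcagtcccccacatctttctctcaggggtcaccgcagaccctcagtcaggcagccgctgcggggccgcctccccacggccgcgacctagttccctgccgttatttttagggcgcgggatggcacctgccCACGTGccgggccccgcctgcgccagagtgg
The RefSeq starts lie 7142 bases apart, and 4 annotated GENCODE transcripts begin at the upstream start against 1 at the downstream start. The windows measure 206 and 245 bases, with a GC content of 57.3% and 66.5%. Neither contains GCGTGGGCG, the motif of EGR factors, or TGACG, the core of the cAMP response element, on either strand. Among 32851 RefSeq windows of 250 bases before a start, 6.75% contained TGANTCA, 6.02% CACGTG, 0.536% GCGTGGGCG and 17.8% TGACG. RefSeq windows were at hand for 7 of the 8 genes (not for Slc12a2), and apart from Slc12a5 a match to any of the 4 motifs was found only for Oxsr1, with 2 matches to TGACG, and for Slc12a7, with 1 match to CACGTG before the later of its starts. A match describes letters in a window and does not show binding.

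Slc12a5 was present at 77.0, 84.9, 84.8 and 83.8 TPM in CNO replicates 1 to 4 and at 69.9, 75.7, 87.9 and 96.6 TPM in vehicle replicates 1 to 4. The CNO values lay inside the range of the vehicle values, and vehicle samples varied more, with an SD of 12.02 TPM against 3.77 TPM (n = 4 each). The group means were almost equal, 82.6 TPM for CNO and 82.5 TPM for vehicle. CNO over vehicle gave a log2 fold change of 0.07 (SE 0.13, adjusted p = 0.886, edgeR's quasi-likelihood test), with a 95% interval from 0.858-fold to 1.29-fold. Between 7424 and 12048 reads per sample lay behind these values, so that counting error was small beside the spread between samples.

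Slc12a2 (ENSMUSG00000024597, chr18:57878678-57946821, plus strand) was present at 10.6, 12.9, 12.3 and 9.29 TPM in CNO replicates 1 to 4. In vehicle replicates 1 to 4 it stood at 14.04, 10.6, 11.7 and 13.04 TPM. The groups overlapped, the lowest value being CNO replicate 4 and the highest vehicle replicate 1. This corresponded to a log2 fold change of -0.06 (SE 0.11, adjusted p = 0.884, edgeR's quasi-likelihood test), with a 95% interval from 0.812-fold to 1.13-fold. NKCC1 is also made by glial cells, whose markers were detected in every sample.

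Slc12a7 (ENSMUSG00000017756, chr13:73733094-73816754, plus strand) encodes KCC4, a chloride exporter better known from epithelia. It reached only 0.68, 1.43, 1.09 and 0.92 TPM in CNO replicates 1 to 4 and 0.77, 0.88, 1.03 and 1.32 TPM in vehicle replicates 1 to 4. These values rested on 73 to 147 reads per sample, and the CNO range enclosed the vehicle range. Its log2 fold change was 0.09 (SE 0.25, adjusted p = 0.927, edgeR's quasi-likelihood test), and the 95% interval, from 0.727-fold to 1.56-fold, was the widest of the 8 genes.

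**Figure D1:**
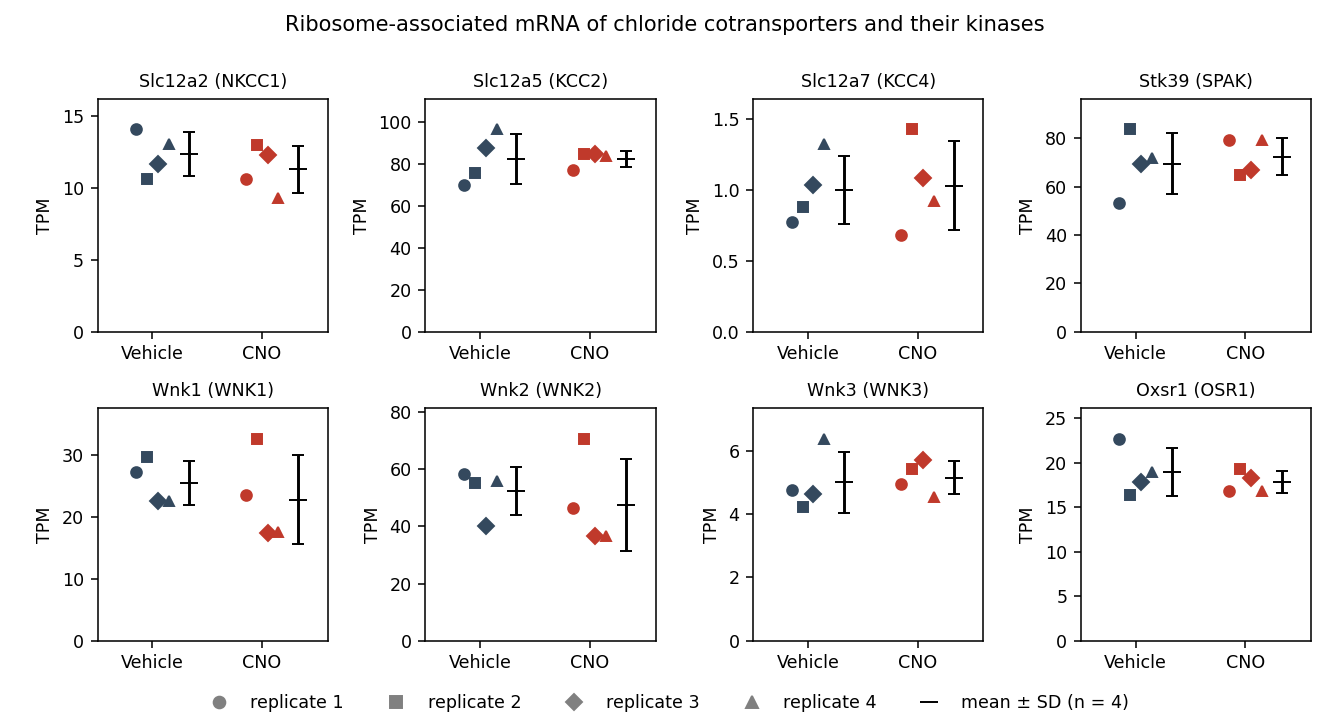
TPM (y axis, from 0, a separate scale for each gene) of the 8 genes in 4 vehicle-treated and 4 CNO-treated samples, with marker shapes for the replicate number and bars for mean and SD (n = 4). In every panel the groups overlap, for example 77.0 to 84.9 TPM for CNO against 69.9 to 96.6 TPM for vehicle in Slc12a5.

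Because the ratio of exporter to importer is often taken as a measure of neuronal maturity, the TPM of Slc12a5 was divided by that of Slc12a2 in each sample. The ratio was 7.26, 6.56, 6.91 and 9.02 in CNO replicates 1 to 4 and 4.98, 7.13, 7.54 and 7.41 in vehicle replicates 1 to 4. It was thus above 1 in all 8 samples, and the lowest value belonged to vehicle replicate 1, the sample with few PV+ interneuron markers. The mean ratio was 7.44 ± 1.09 (SD, n = 4) for CNO and 6.77 ± 1.20 (SD, n = 4) for vehicle, a difference smaller than either SD. On the log2 scale the difference in means was 0.15, and without vehicle replicate 1 it was 0.0044.

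The levels of Slc12a2, Slc12a5 and Slc12a7 were also set against that of Slc12a4, which encodes the widely expressed exporter KCC1. Of the summed TPM of these 4 genes, Slc12a5 made up 80.6% (75.2% to 84.1% over the 8 samples) and Slc12a2 11.6% (9.33% to 15.1%). Slc12a4 accounted for 6.89% (5.46% to 8.89%) and Slc12a7 for 0.9797% (0.724% to 1.32%). The highest share of Slc12a2 and the lowest of Slc12a5 both belonged to vehicle replicate 1. The kidney cotransporters Slc12a1 (NKCC2) and Slc12a3 (NCC) had means of 0.0283 and 0.0036 TPM and were too low to be tested.

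**Figure D2:**
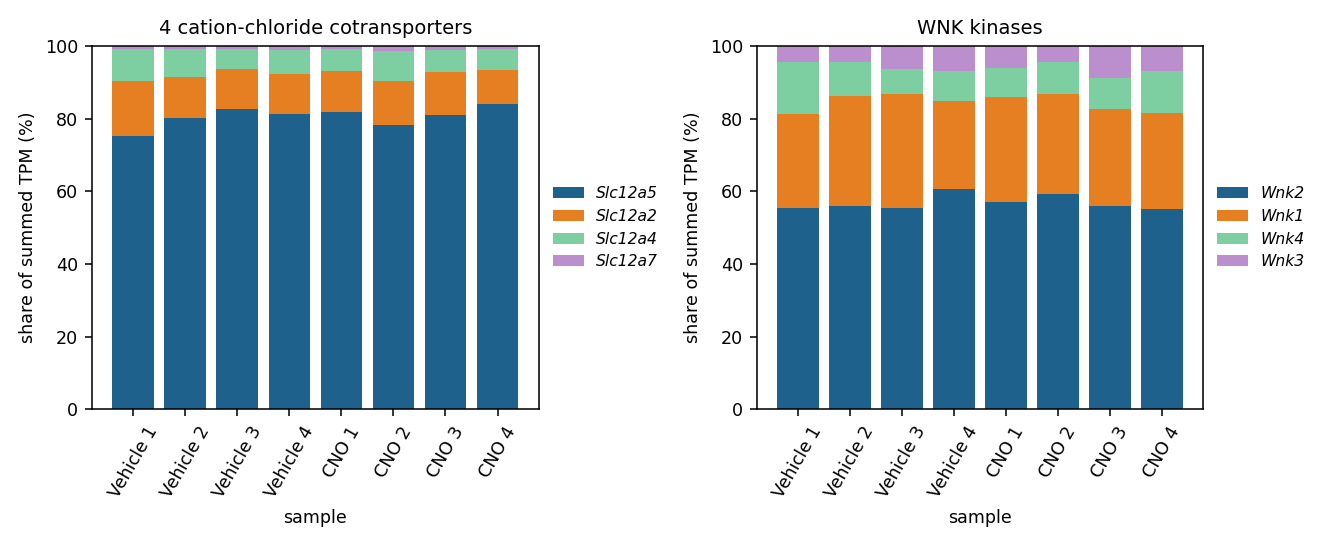
Share of summed TPM (y axis, percent) taken by each of 4 cation-chloride cotransporters (left) and by each WNK kinase (right) in the 8 samples (x axis). Slc12a5 and Wnk2 fill the largest part of every bar, from 75.2% to 84.1% and from 55.1% to 60.6%.

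The WNK kinases stand at the top of the cascade. Wnk2 (ENSMUSG00000037989, chr13:49036303-49148014, minus strand), a brain-enriched member, was the most abundant, at 46.5, 70.8, 36.6 and 36.6 TPM in CNO replicates 1 to 4. Its vehicle values were 58.5, 55.3, 40.2 and 56.1 TPM in replicates 1 to 4. The CNO range enclosed the vehicle range, CNO replicate 2 being the highest of all samples. The log2 fold change was -0.08 (SE 0.18, adjusted p = 0.907, edgeR's quasi-likelihood test), with a 95% interval from 0.716-fold to 1.25-fold.

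Wnk1 (ENSMUSG00000045962, chr6:119923969-120038672, minus strand), the widely expressed founding member of the family, was at 23.5, 32.7, 17.4 and 17.6 TPM in CNO replicates 1 to 4 and 27.2, 29.7, 22.6 and 22.5 TPM in vehicle replicates 1 to 4. CNO replicates 3 and 4 were lower than every vehicle sample, whereas CNO replicate 2 was higher than every vehicle sample. For Wnk1 the log2 fold change was -0.18 (SE 0.15, adjusted p = 0.820, edgeR's quasi-likelihood test), with a 95% interval from 0.700-fold to 1.11-fold. Wnk1 and Wnk2 were alike in their spread over samples, with a coefficient of variation of 22.5% and 24.3%, and in each sample Wnk2 exceeded Wnk1 by 1.78-fold to 2.49-fold.

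Wnk3 (ENSMUSG00000041245, chrX:151198078-151320152, plus strand), a neuronal WNK known to act strongly on the cotransporters, was lower, at 4.93, 5.41, 5.72 and 4.54 TPM in CNO replicates 1 to 4. In vehicle replicates 1 to 4 it was at 4.76, 4.23, 4.62 and 6.38 TPM. The CNO values lay inside the vehicle range. The log2 fold change, 0.20 (SE 0.14, adjusted p = 0.820, edgeR's quasi-likelihood test), had a 95% interval from 0.929-fold to 1.42-fold. It was fitted to counts. In TPM the group means were 5.15 for CNO and 5.00 for vehicle, and limma on log2 TPM with a pseudocount of 1 gave 0.045. The remaining member, Wnk4, better known from the kidney, was at a mean of 8.40 TPM and showed a log2 fold change of -0.02. Of the summed WNK TPM, Wnk2 made up 56.9%, Wnk1 27.6%, Wnk4 9.45% and Wnk3 6.03%. The share of Wnk4 was highest in vehicle replicate 1, at 14.2%, against 6.85% to 11.5% in the other samples. This held in TPM only. In CPM, which is not corrected for length, Wnk4 was at 7.05 in vehicle replicate 1, inside the 5.72 to 8.26 of the others.

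Stk39 (ENSMUSG00000027030, chr2:68210445-68472268, minus strand), which encodes SPAK, was at 79.2, 64.8, 66.9 and 79.2 TPM in CNO replicates 1 to 4 and at 53.4, 83.7, 69.5 and 71.7 TPM in vehicle replicates 1 to 4. Vehicle samples held both the lowest and the highest value. The group means were 72.5 TPM for CNO and 69.6 TPM for vehicle. A log2 fold change of 0.20 (SE 0.15, adjusted p = 0.820, edgeR's quasi-likelihood test) was fitted to counts, with a 95% interval from 0.917-fold to 1.43-fold. Without vehicle replicate 1 it was 0.07.

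Oxsr1 (ENSMUSG00000036737, chr9:119238432-119322427, minus strand), which encodes OSR1, was at 16.8, 19.3, 18.3 and 16.8 TPM in CNO replicates 1 to 4. Its vehicle values were 22.7, 16.4, 17.9 and 19.0 TPM in replicates 1 to 4, and the vehicle range enclosed the CNO range. The log2 fold change of 0.02 (SE 0.09, adjusted p = 0.965, edgeR's quasi-likelihood test) had the narrowest 95% interval of the 8 genes, from 0.884-fold to 1.16-fold. SPAK mRNA exceeded OSR1 mRNA in all 8 samples, by 3.94-fold on average and by 2.35-fold in vehicle replicate 1, the lowest of the samples.

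Ordered by mean TPM over all 8 samples, the genes ran from Slc12a5 (82.6 ± 8.25, SD) through Stk39 (71.0 ± 9.74), Wnk2 (50.1 ± 12.2), Wnk1 (24.2 ± 5.43), Oxsr1 (18.4 ± 2.04), Slc12a2 (11.8 ± 1.57) and Wnk3 (5.07 ± 0.71) to Slc12a7 (1.01 ± 0.26). The highest mean was 81.4 times the lowest. The ranges of mean ± SD met for Slc12a5 and Stk39 (Slc12a5 higher in 6 of 8 samples). They also met for Stk39 and Wnk2 (Stk39 higher in 6 of 8) and for Wnk1 and Oxsr1 (Wnk1 higher in 7 of 8). Both genes of a pair were measured in the same samples, and the differences within samples were not tested. The other neighbours kept their order in 8 of 8 samples and their ranges of mean ± SD did not meet. Relative to the 17862 genes tested, Slc12a5 stood at the 86.8th percentile of mean TPM, Slc12a2 at the 48.7th and Slc12a7 at the 14.9th. Sequence shared with other genes was negligible, at most 0.207% of the 31-nucleotide stretches of transcripts (Wnk1). The library kit does not mark strand, so that reads from the annotated genes that overlap Wnk1 (2), Wnk3 (3) and Oxsr1 (2) cannot be told apart from reads of these genes where they coincide.

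Across the 8 genes the question was whether activation of PV+ interneurons for 48 h altered the ribosome-associated mRNA of the chloride machinery. With edgeR's quasi-likelihood test 0 of 8 genes had an adjusted p under 0.05, and 0 of 8 had an unadjusted p under 0.05. When single samples were omitted, the latter count was 1 of 8 without CNO replicate 2, where Wnk1 had a log2 fold change of -0.33 (SE 0.13), and 1 of 8 without vehicle replicate 4, where Wnk3 had one of 0.33 (SE 0.12), and 0 otherwise. Among all 17862 genes tested, 0 (0%) passed the cut-offs of an adjusted p under 0.05, a change over 1.5-fold and a mean above 1 TPM, whereas 731 (4.09%) had an unadjusted p under 0.05, 260 (1.46%) of them higher and 471 (2.64%) lower with CNO. Past these cut-offs were 17 genes with the likelihood ratio test on robust dispersions and 10 with DESeq2, none of them a member of the 8. The groups overlapped in TPM for all 8 genes, as for most genes, since 568 of all genes (3.18%) had groups that did not. Of the 8, 5 had a fitted log2 fold change above 0 and 3 below, with a median of 0.05 against 0.00 over all genes. The split was 4 and 4 when counts were scaled by library size only, 3 and 5 (median -0.02) without vehicle replicate 1, and 6 and 2 with 1 surrogate variable as a term. The intervals bound what these samples can show. Only that of Slc12a7 reached a rise of 1.5-fold, and no interval reached a fall of that size, but a missed threshold does not show that the levels were equal.

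**Figure D3:**
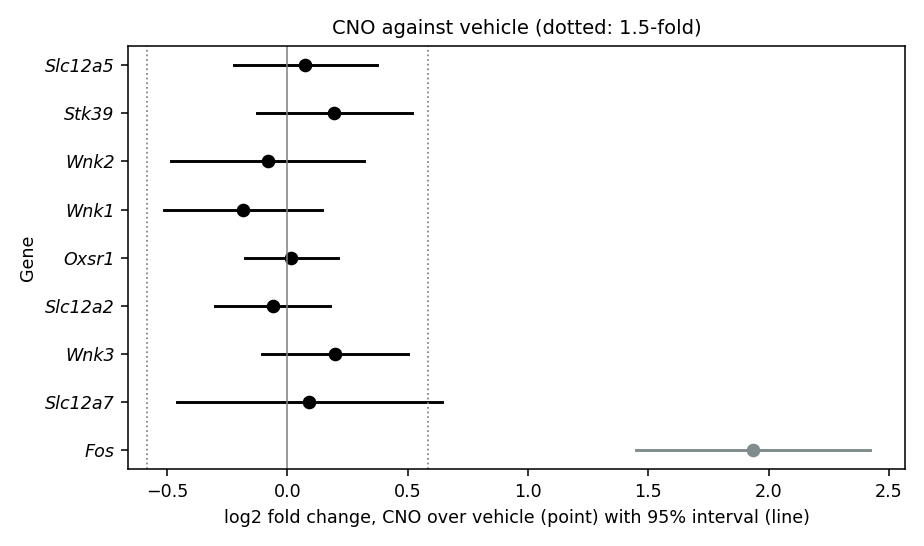
Log2 fold change of CNO over vehicle (x axis) for the 8 genes, in order of abundance, and for Fos, with points for the estimate and lines for its 95% interval (edgeR's quasi-likelihood fit, 4 against 4 samples). All 8 intervals include 0, and only that of Slc12a7 crosses a dotted line of 1.5-fold, whereas that of Fos runs from 1.45 to 2.42.

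Samples also differed in how much PV+ interneuron mRNA they held relative to that of pyramidal cells. A marker index was calculated as the mean log2 CPM of the PV+ interneuron markers minus that of the pyramidal cell markers. It was 1.67, 0.94, 1.49 and 2.10 in CNO replicates 1 to 4 and -0.30, 1.08, 1.52 and 1.37 in vehicle replicates 1 to 4, so that vehicle replicate 1 again stood apart. The PV+ interneuron markers themselves leaned towards CNO, 11 of 11 with a fitted log2 fold change above 0 (median 0.43), and 10 of 11 (median 0.20) without vehicle replicate 1. None of them had an adjusted p under 0.05 with edgeR or DESeq2, and the unadjusted p was under 0.05 for Gad2 alone with edgeR's quasi-likelihood test (0.0340, a gene named after its value was seen). Of the pyramidal cell markers 9 of 10 leaned the other way, with a median of -0.13, as did 6 of 6 oligodendrocyte markers, with a median of -0.23. Below 0 were also 5 of 7 astrocyte, 5 of 5 microglial and 3 of 3 oligodendrocyte precursor markers. Not all other cell types did so, as 4 of 5 blood vessel markers were above 0 (median 0.30) and markers of other interneurons split 3 and 3. The index and the treatment are therefore not independent in these samples.

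In a fit with treatment and index, the slope on the index was positive for Stk39, at 0.33 log2 units per unit of index (SE 0.06, adjusted p = 0.00271, edgeR's quasi-likelihood test), and for Slc12a5, at 0.25 (SE 0.07, adjusted p = 0.0207). These 2 of 8 genes (25%) compare with 4764 of 17862 genes (26.7%) that had a slope past the threshold in either direction (3369 positive and 1395 negative), so that the 8 genes followed the index about as often as genes in general. Stk39 was at 60.2 CPM in vehicle replicate 1, the sample of lowest index, and at 102 CPM in CNO replicate 4, the sample of highest index. Slc12a5 was at 166 CPM in the former and 234 CPM in the latter. Both calls rested on vehicle replicate 1. Without it the slope of Stk39 was 0.30 (adjusted p = 0.113) and that of Slc12a5 0.20 (adjusted p = 0.367), while 1307 of 17661 genes (7.4%) had an adjusted p under 0.05. The slope of Slc12a5 also lost its call without CNO replicate 3 (adjusted p = 0.0531), CNO replicate 4 (0.108) or vehicle replicate 3 (0.0624), in edgeR's quasi-likelihood test.

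Wnk1 and Wnk2 had slopes of the opposite sign, -0.20 (SE 0.10, adjusted p = 0.178) and -0.24 (SE 0.13, adjusted p = 0.187), in edgeR's quasi-likelihood test. Leaving out vehicle replicate 1 had the opposite effect here. Without it the slopes were -0.60 (SE 0.14, adjusted p = 0.0361) for Wnk1, past the threshold, and -0.68 (SE 0.18, adjusted p = 0.0555) for Wnk2, whereas without CNO replicate 2 they were -0.10 (adjusted p = 0.503) and -0.09 (adjusted p = 0.582). Among the 7 remaining samples Wnk1 was highest, at 60.2 and 59.0 CPM, in vehicle replicate 2 and CNO replicate 2, the samples of lowest index, and lowest, at 37.4 CPM, in CNO replicate 4. For Slc12a2 (-0.11, adjusted p = 0.290), Oxsr1 (-0.07, 0.429), Wnk3 (0.15, 0.311) and Slc12a7 (0.14, 0.686) the slope did not pass the threshold. The index was built from the same libraries as the values set against it.

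**Figure D4:**
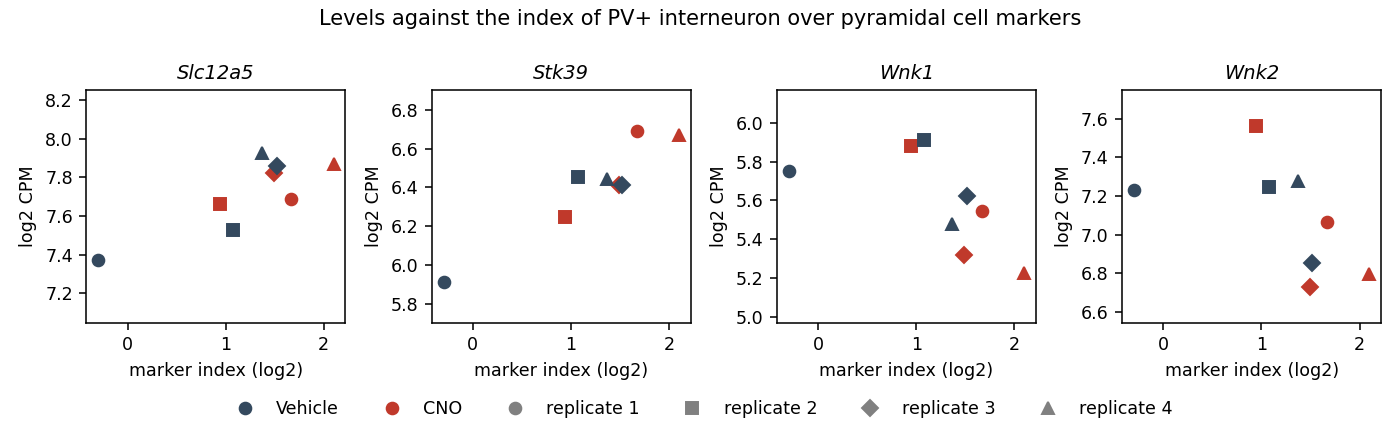
Log2 CPM (y axis) of Slc12a5, Stk39, Wnk1 and Wnk2 against the marker index (x axis, log2) in the 8 samples, with colours for treatment and shapes for the replicate number. Vehicle replicate 1, at an index of -0.30, has the lowest Slc12a5 and Stk39, whereas Wnk1 and Wnk2 are lowest in CNO replicates 3 and 4, at an index of 1.49 and 2.10.

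The genes whose level followed that of each main cotransporter most closely over the 8 samples were listed as a description. Among 15232 other genes with a mean above 1 TPM, those most like Slc12a5 by Pearson correlation of log2 CPM were Atp2a2, a calcium pump of the endoplasmic reticulum (r = 0.981), Acan, the perineuronal net proteoglycan aggrecan (r = 0.979), Drosha, a nuclease of miRNA processing (r = 0.975), Snx25 (r = 0.966) and Sipa1l2 (r = 0.962). For Acan, present at only 1.16 TPM, and the others, r stayed between 0.940 and 0.976 without vehicle replicate 1. Those most like Slc12a2 were Rtel1, a DNA helicase (r = 0.985), Zfp445, a zinc finger protein (r = 0.975), Gpr34, a receptor of microglia (r = 0.975), Slc4a10, a sodium-bicarbonate transporter of neurons that can exchange chloride (r = 0.962), and Tmem97 (r = 0.960). Without vehicle replicate 1 these values lay between 0.965 and 0.982. Each point was a library, so that the genes compared share its depth and cell makeup, and the highest of so many correlations are high by selection.

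The wider machinery was followed through a list of 48 genes, of which 47 were found in the tables (all but Clcn4) and 43 were tested. With edgeR's quasi-likelihood test 0 of 43 had an adjusted p under 0.05, and 2, Clcn5 and Ano2, had an unadjusted p under 0.05, beside 4.09% of all genes. DESeq2 and the likelihood ratio test also gave 0 of 43 by adjusted p. Fitted fold changes were above 0 for 25 genes and below 0 for 18, with a median of 0.02, but this split turned to 17 and 26 with scaling by library size only, to 18 and 25 without vehicle replicate 1, and to 15 and 28 with the marker index or 1 surrogate variable as a term.

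Of the other Slc12 transporters, Slc12a4 (KCC1) was at 7.03 ± 1.31 TPM (SD, n = 8) with a log2 fold change of 0.00 (SE 0.15). Slc12a9 was at 12.6 TPM (log2 fold change 0.10) and Slc12a8 at 0.498 TPM (0.38, SE 0.40). The scaffold proteins MO25, which raise the activity of SPAK and OSR1, were abundant, Cab39 at 134.8 ± 18.6 TPM and Cab39l at 36.0 ± 4.32 TPM, with log2 fold changes of 0.25 (SE 0.16) and 0.15 (SE 0.15). Cab39 was lowest, at 98.1 TPM, in vehicle replicate 1, as was Stk39. Cullin 3 (Cul3, 204.0 TPM, 0.20) and its adaptors Klhl2 (103.4 TPM, -0.13) and Klhl3 (1.97 TPM, -0.33), which direct the degradation of WNK proteins, had no unadjusted p under 0.05 in edgeR's quasi-likelihood test, the lowest being 0.0950 for Klhl3. Sgk1, a kinase that acts on the pathway through the ubiquitin ligase Nedd4l, was steady across samples, at 82.4 ± 5.03 TPM (log2 fold change 0.10), and Nedd4l was at 24.0 TPM (-0.10). Klhl2 was thus far more abundant than Klhl3.

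Among 11 partners, kinases and phosphatases of the cotransporters, 6 had a fitted fold change above 0 and 5 below, a split that was 4 and 7 without vehicle replicate 1 or CNO replicate 4, and 1 and 10 with the marker index or 1 surrogate variable as a term. The most abundant were Ckb, the brain creatine kinase that binds KCC2, at 2949 ± 624 TPM, and Ppp3ca, the catalytic subunit of calcineurin, at 755.0 ± 108 TPM. Their log2 fold changes were 0.25 (SE 0.24) and -0.14 (SE 0.11). Ckb ranged from 1648 TPM in vehicle replicate 1 to 3737 TPM in CNO replicate 4, the samples of lowest and highest index.

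Of 20 chloride channels and exchangers tested, Ttyh1, of the tweety family, was the most abundant, at 139.8 TPM (log2 fold change -0.05), followed by Slc4a3, a chloride-bicarbonate exchanger, at 86.9 TPM (0.09). The endosomal exchanger Clcn5 had a log2 fold change of 0.32 (SE 0.14, adjusted p = 0.820, edgeR's quasi-likelihood test). Its CNO values were 2.42, 2.24, 2.28 and 2.53 TPM in replicates 1 to 4. Its vehicle values were 1.82, 1.84, 2.44 and 2.45 TPM, so that the groups overlapped. Ano2, a calcium-activated chloride channel, had a log2 fold change of -1.30 (SE 0.43, adjusted p = 0.820, edgeR's quasi-likelihood test). It rested on 4, 13, 11 and 20 reads in CNO replicates 1 to 4 and on 30, 18, 37 and 34 reads in vehicle replicates 1 to 4, and its mean of 0.392 TPM lay below the cut-off of 1 TPM. Clcn3, an endosomal exchanger named here after its values were seen, shows how the unit matters. In TPM its groups did not overlap, at 74.6 to 78.8 for CNO against 82.2 to 84.9 for vehicle, whereas in CPM they did, at 151 to 176 against 156 to 173, and the fitted log2 fold change was -0.01 (adjusted p = 0.988, edgeR's quasi-likelihood test).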

How the data were processed

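Ribosome-associated mRNA was sequenced from 4 CNO-treated and 4 vehicle-treated samples. Following the study's methods, reads were checked by the authors with FastQC and trimmed with Trim Galore, and the STAR alignment to GRCm38 (mm10) was quantified per gene (Salmon, tximport). Deposited by the authors were estimated counts, unfiltered and not normalized, and TPM, which correct for transcript length. Depth was 44064161 to 49413273 counts per sample. Whether samples of a group were separate litters or cohorts is not given in the sources used here, beyond the pooling of 4 brains, so that p-values measure the spread between pools.

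Estimated counts were rounded to whole numbers. Genes with at least 10 counts in at least 4 samples were kept (17862 of 45706), normalized by TMM and compared by the quasi-likelihood F test of edgeR 4.0.16 in R 4.3.3, without a block, with Benjamini-Hochberg adjustment over all genes tested. Intervals of 95% came from the same fit. Log2 CPM used a prior count of 2. For each gene named, log2 TPM was also compared by an exact two-sided permutation over all 70 assignments. The study's methods give estimateGLMRobustDisp in edgeR, and a legend speaks of Wald's test. Alternatives were the likelihood ratio test on robust dispersions, DESeq2 1.42.0 with its Wald test, limma 3.58.1 on log2 TPM, other normalizations, filters and covariates (including 1 surrogate variable from sva 3.50.0), and leaving out each sample. The stricter reading of the study's filter was added after seeing the data. The tests were tried on simulated data before use.

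Positions came from GENCODE release M21, which holds 45143 of the 45706 identifiers, and windows before starts from RefSeq on GRCm38.p6, trimmed at the first annotated start. A comparison of protein sequences that had been planned was not made here. The 8 genes and the lists were chosen with earlier results of these data known. Named were the 8 genes, Fos, the Slc12 and Wnk families, the kinase cofactors and degradation genes, in each other group the 2 genes of highest mean TPM and those with an unadjusted p under 0.05, and the 5 genes most like Slc12a2 and Slc12a5. Some genes of these lists are not reported here. Plots were drawn with matplotlib 3.10.9.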

Additional observations from a re-analysis of the deposited data

Results flagged for a closer look

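Within groups of 4 samples, 3 of 20 sets of values held a sample farther from the others than Dixon's 95% criterion allows, with a gap to the nearest sample of 0.866, 0.830 and 0.842 of the group's range in the order given here, where chance gives about 1 in 20. In the CNO group, Slc12a5 was at 77.0 TPM in replicate 1 against 83.8 to 84.9 TPM in the others. In the vehicle group, Wnk2 was at 40.2 TPM in replicate 3 against 55.3 to 58.5 TPM in the others. The ratio of Slc12a5 to Slc12a2 was 4.98 in vehicle replicate 1 against 7.13 to 7.54 in the others, in the sample with the lowest summed level of PV+ interneuron markers, and the part of these markers in the ratio was not tested.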

How the results depend on the processing

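Over all genes, the count past the cut-offs was 0 in the reported fit, 17 with the likelihood ratio test on robust dispersions, 10 with DESeq2, 4 without a filter on low counts, 3 with a term for replicates 1 and 2 against 3 and 4, and 0 to 2 with each sample left out. For the 8 genes, 152 of 168 alternative fits kept the sign and the side of the threshold and the other 16 turned the sign of a fold change, with no adjusted p below 0.473. The log2 fold change turned with 1 surrogate variable for Slc12a2 (0.0080), Slc12a5 (-0.053) and Wnk2 (0.060), with the marker index as a term for Slc12a2 (0.0083), Slc12a5 (-0.069), Wnk2 (0.053) and Stk39 (-0.0074), and for Oxsr1 with library size only (-0.036) or when limma was run on TPM in log2 form after a pseudocount of 1 (-0.081) or 0.1 (-0.085). The cause was not tested. With each sample left out the log2 fold change lay between -0.022 and 0.16 for Slc12a5, -0.14 and -0.010 for Slc12a2, and -0.063 and 0.25 for Slc12a7. For the kinases it lay between -0.29 and 0.0078 for Wnk2, -0.33 and -0.10 for Wnk1, and 0.11 and 0.33 for Wnk3. It lay between 0.074 and 0.27 for Stk39 and between -0.048 and 0.049 for Oxsr1. The median of the wider list lay between -0.025 and 0.074. Fos passed the threshold at 1.88 with the likelihood ratio test, 1.94 with DESeq2, 1.95 without a filter, 1.93 with the term for replicates 1 and 2 against 3 and 4 (adjusted p = 0.0490), and without CNO replicate 1, within a range of 1.72 to 2.09 with each sample left out. Over these fits with each sample left out, its adjusted p in edgeR's quasi-likelihood test ran from 0.0140 to 0.556. Slopes on the index with each sample left out ranged from 0.20 to 0.26 for Slc12a5, 0.29 to 0.36 for Stk39 and -0.60 to -0.10 for Wnk1. They ranged from -0.68 to -0.09 for Wnk2, -0.38 to 0.33 for Slc12a7 and -0.024 to 0.17 for Wnk3. For Slc12a2 the slope ranged from -0.206 to -0.105 and for Oxsr1 from -0.120 to -0.052. Slc12a7, at 73 to 147 reads, was the gene most limited by depth.

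The replicate numbers shared by the groups did not pair the samples one to one. Deviations from the group means of same-numbered samples correlated at 0.0489, 0.00694, 0.194 and 0.210 over 17862 genes. CNO replicate 2 correlated best with vehicle replicate 1 (0.410). Replicates 1 and 2 of CNO correlated positively with vehicle replicates 1 and 2 (0.00694 to 0.410), as did replicates 3 and 4 (0.0944 to 0.306). Every correlation between these 2 sets was negative (-0.364 to -0.0481), and the cause was not tested. With a replicate block 0 genes passed, and no call for the 8 genes changed (Slc12a5 0.09, Slc12a2 -0.06, Wnk1 -0.20, Wnk2 -0.11).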
